A study of Mus musculus with 16 samples.

Results

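Prostaglandins are lipid signals made from arachidonic acid. Phospholipase A2 enzymes release arachidonic acid from membrane phospholipids, cyclooxygenases convert it to a short-lived intermediate, and terminal synthases turn that intermediate into prostaglandin E2 (PGE2), prostaglandin D2 (PGD2), prostacyclin or thromboxane, each of which acts on its own G protein-coupled receptors. In brain, PGE2 made after peripheral inflammation is best known for its part in fever, and PGD2 for its part in sleep. The 10 genes described here cover these steps: the cytosolic phospholipase *Pla2g4a*, the cyclooxygenases *Ptgs1* and *Ptgs2*, the PGE2 synthases *Ptges* and *Ptges3*, the PGD2 synthases *Ptgds* and *Hpgds*, the prostacyclin synthase *Ptgis*, and the PGE2 receptor genes *Ptger2* and *Ptger4*. They were given by name, each name was found once by symbol, and they are 10 of the 55487 genes in the deposited table.

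RNA was sequenced from the cortex of 16 wild-type (WT) C57Bl6 male mice, aged 2 months. LPS, a cell wall component of Gram-negative bacteria that activates innate immunity through a Toll-like receptor, was injected i.p. at 2 mg/kg, or PBS was injected as the control, on 2 days in a row and the cortex was taken the day after. Injections fell at ZT1, early in the light phase, or at ZT13, early in the dark phase, which gave 3 ZT1 PBS, 5 ZT1 LPS, 3 ZT13 PBS and 5 ZT13 LPS mice. The labels name no litter, cage or sequencing batch, and every mouse was killed after repeated injection, so the first hours after LPS were not sampled. By the paper, tissue was taken at the same time of day as the injections. Time of injection and time of collection therefore cannot be told apart here.

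Values were CPM, the reads of a gene scaled to a fixed library total. Between 20251840 and 29112758 reads on genes were estimated per library, so that 3 reads, the limit that a count of 0 allows, corresponded to 0.103 to 0.148 CPM; this covers counting error only. A gene was tested when it reached 1 CPM in at least 3 mice, which left 18859 genes. All of the members but *Ptger2* passed, and the 9 that did were at 1.39 CPM or more in every mouse, so none passed through one group alone. Differences are in log2(CPM + 0.5), tested by limma with Benjamini-Hochberg adjustment over all genes tested, and genes with an adjusted p below 0.05 are called DEGs. Cortex holds many cell types, and in such bulk RNA fewer cells of a type and less RNA per cell cannot be told apart.

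The treatment field of the labels contradicted the sample title in 12 of 16 mice, and the titles were followed. The description of ZT13 PBS replicate 1 ends in another suffix than those of all other mice, and its meaning is not given; without that mouse the same 4 members were called at ZT13, and *Ptgs2* differed there by 0.56 log2. By the titles, the acute-phase gene *Lcn2* was between 0.0421 and 0.197 CPM in the 6 PBS mice and between 107 and 418 CPM in the 10 LPS mice, with no overlap. The clock output gene *Dbp* was at 37.3 to 55.5 CPM in ZT1 PBS mice and at 91.5 to 111 CPM in ZT13 PBS mice, again with no overlap, and its partner in antiphase, *Arntl*, was at 38.6 to 39.4 and 24.0 to 27.3 CPM. In LPS mice *Dbp* differed by 0.20 log2 between the times (limma, adjusted p = 0.266). The time of injection and collection could thus be read from it in PBS mice but not in LPS mice. *Gfap*, a marker of reactive astrocytes, was at 123 CPM or less in PBS mice and at 572 CPM or more in LPS mice. Cortical neuron markers summed to between 4694 and 5437 CPM in every mouse. Choroid plexus markers, which cortex should lack, summed to between 17.6 and 998 CPM, a spread found inside every group, with *Ttr* the most abundant.

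After LPS, *Pla2g4a*, *Ptgs2* and *Ptges* were higher at both injection times, and *Ptger4* passed the test at ZT13. No member was called lower. The call of *Ptgs2* at ZT1 held in 2 of 8 fits that lacked 1 mouse and in 6 of 10 other settings. At ZT1, 3 of the 9 members tested were DEGs and higher after LPS (*Pla2g4a*, *Ptgs2* and *Ptges*) against 11.1% of all genes tested, and 0 were lower against 5.15%. At ZT13, 4 were DEGs and higher (the same genes and *Ptger4*) against 19.2% of all genes, and 0 were lower against 9.40%. Every LPS mouse was above every PBS mouse for 2 members at ZT1, where 15.9% of all genes were separated in that direction, and for 4 members at ZT13, where 20.9% were. The median log2 difference of the 9 members was 0.31 at ZT1 and 0.33 at ZT13, against 0.04 and 0.05 over all genes tested. The comparisons at ZT1 and ZT13 share no mice.

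**Figure D1:**
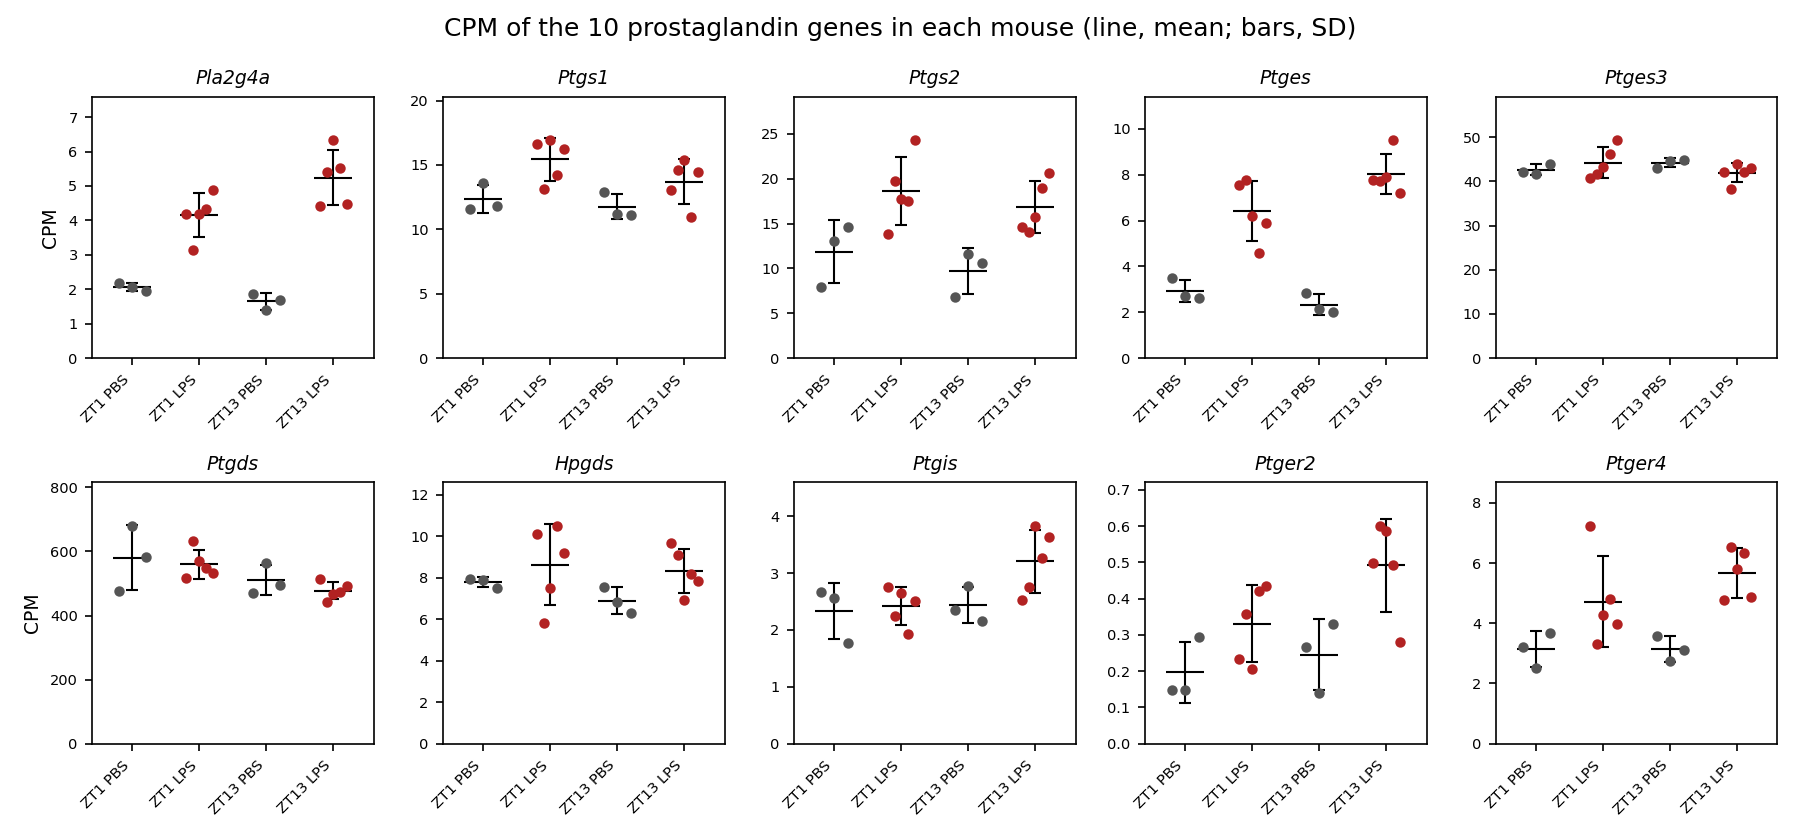
Level of each of the 10 members in every mouse, in CPM on linear axes that start at 0, by group (ZT1 PBS, ZT1 LPS, ZT13 PBS and ZT13 LPS; n = 3, 5, 3 and 5). Points are mice, and bars are the group mean with its SD; *Pla2g4a* and *Ptges* separate LPS from PBS mice at both times.

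Scaling changed the balance of the calls over all genes. Scaled to library totals, DEGs were 2089 higher and 972 lower at ZT1 and 3629 higher and 1772 lower at ZT13. Median-of-ratios factors gave 1656 and 1390 at ZT1 and 2842 and 2831 at ZT13, and quantile normalization gave 1493 and 1426 at ZT1 and 2540 and 3106 at ZT13. With 1 mouse left out, the DEGs of both directions numbered 1767 to 3758 at ZT1 in place of 3061, and 4329 to 5547 at ZT13 in place of 5401. Quantile normalization moved the all-gene median at ZT13 by -0.11 log2. The members called at ZT13 stayed called and higher under both; relative to the all-gene median of each scaling, *Ptges* differed at ZT13 by 1.55, 1.55 and 1.44 log2, *Pla2g4a* by 1.36, 1.37 and 1.25, *Ptgs2* by 0.74, 0.73 and 0.70, and *Ptger4* by 0.70, 0.71 and 0.58. At ZT1, 2 members were called under each of the other scalings, *Pla2g4a* and *Ptges*, and *Ptgs2* was not (0.61 and 0.55 log2).

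*Pla2g4a* (ENSMUSG00000056220, chr1:149829618-149961290, minus strand, GRCm38) encodes the calcium-dependent cytosolic phospholipase A2 that releases arachidonic acid for prostaglandin synthesis. It was at 2.17, 2.07 and 1.94 CPM in the ZT1 PBS mice and at 4.20, 3.13, 4.19, 4.34 and 4.89 CPM in the ZT1 LPS mice. At ZT13 it was at 1.86, 1.39 and 1.70 CPM after PBS and at 4.43, 5.41, 6.33, 5.53 and 4.48 CPM after LPS. Every LPS mouse was above every PBS mouse at both times, and the least separated LPS mouse was ZT1 LPS replicate 2. Group means (SD) were 2.06 (0.117) and 4.15 (0.638) CPM at ZT1, and 1.65 (0.240) and 5.24 (0.798) CPM at ZT13. The log2 difference was 0.85 (SE 0.14, limma, Benjamini-Hochberg adjusted p = 0.0018) at ZT1 and 1.41 (SE 0.14, adjusted p = 3.8e-06) at ZT13. Both calls held under every alternative tried with the groups of the titles.

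*Ptgs1* (ENSMUSG00000047250, chr2:36230426-36252272, plus strand), the cyclooxygenase made at a steady level in many tissues and in brain known from microglia, did not pass the test at either time. It was at 11.6, 13.6 and 11.8 CPM after PBS and at 16.6, 13.2, 16.9, 14.2 and 16.2 CPM after LPS at ZT1. The ZT13 values were 12.9, 11.2 and 11.2 CPM after PBS and 13.1, 14.6, 15.4, 10.99 and 14.5 CPM after LPS. At each time 1 LPS mouse lay below the highest PBS mouse and the rest lay above it. The log2 difference at ZT1 was 0.31 (SE 0.10, adjusted p = 0.0505), just outside the threshold, and without ZT1 LPS replicate 2 it was 0.36 with adjusted p = 0.0141. Over the other fits at ZT1 the adjusted p ranged from 0.0141 to 0.184 when 1 mouse was left out and from 0.0154 to 0.158 under other settings. At ZT13 the log2 difference was 0.21 (SE 0.10, adjusted p = 0.159), and without ZT13 LPS replicate 4 it was 0.28 with adjusted p = 0.0282, in a range of 0.0282 to 0.359. Under quantile normalization it was 0.06 (adjusted p = 0.733, in a range of 0.0669 to 0.733 over other settings).

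*Ptgs2* (ENSMUSG00000032487, chr1:150100031-150108227, plus strand) encodes the inducible cyclooxygenase, which in cortex is also made by neurons as an activity-dependent gene. At ZT1 it was at 7.89, 13.04 and 14.7 CPM after PBS and at 13.9, 19.7, 17.8, 17.5 and 24.3 CPM after LPS. At ZT13 it was at 6.79, 11.7 and 10.6 CPM after PBS and at 14.6, 14.1, 15.8, 19.0 and 20.6 CPM after LPS. The groups overlapped at ZT1, where ZT1 LPS replicate 1 lay below ZT1 PBS replicate 3, and did not overlap at ZT13; replicate 1 was the lowest mouse of each PBS group. The log2 difference was 0.65 (SE 0.20; 95% interval 0.22 to 1.08, adjusted p = 0.0423) at ZT1 and 0.79 (SE 0.16, adjusted p = 0.0019) at ZT13.

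The call of *Ptgs2* at ZT1 rested on several mice and on the settings. Of the 8 fits that each lacked 1 mouse, 6 lost it: the log2 difference was 0.39 without ZT1 PBS replicate 1, 0.74 without ZT1 PBS replicate 2, and 0.63, 0.66, 0.67 and 0.55 without ZT1 LPS replicates 2, 3, 4 and 5. The adjusted p ranged from 0.0239 to 0.187 over those 8 fits, and from 0.0164 to 0.215 over 10 other settings, of which 6 kept the call. At ZT13 the call held with any mouse left out (log2 differences of 0.56 to 0.93) and was lost when all genes above 0 CPM were tested (adjusted p = 0.0538; 0.0018 to 0.0538 over other settings).

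*Ptgs2* and *Pla2g4a* lie on the same chromosome, 138740 bases apart and on opposite strands, with 3 annotated genes between them. One of these, *Ptgs2os*, is transcribed away from the *Ptgs2* start and was at 0.448 to 1.12 CPM; the other 2 were at or near 0. The strand of the libraries is not given in the sources used here, so reads of antisense transcripts and of the members cannot be told apart where their exons overlap. *Ptgs1* shares 148 exon bases with an antisense gene that was at 0.637 CPM or less.

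*Ptges* (ENSMUSG00000050737, chr2:30889471-30929863, minus strand) encodes microsomal PGE synthase, the inducible PGE2 synthase that is coupled to the inducible cyclooxygenase and is known from brain endothelium in fever. It was at 3.50, 2.72 and 2.61 CPM after PBS and at 7.56, 7.79, 6.18, 4.59 and 5.89 CPM after LPS at ZT1. At ZT13 it was at 2.85, 2.13 and 2.02 CPM after PBS and at 7.75, 7.74, 7.92, 9.51 and 7.21 CPM after LPS. No groups of PBS and LPS mice overlapped, and the ZT13 LPS mice lay close together, from 7.21 to 9.51 CPM. Group means (SD) were 2.94 (0.487) and 6.40 (1.31) CPM at ZT1, and 2.33 (0.451) and 8.03 (0.873) CPM at ZT13. The log2 difference was 0.99 (SE 0.16, adjusted p = 0.00205) at ZT1 and 1.60 (SE 0.12, adjusted p = 3.83e-07) at ZT13, the largest of any member at each time. Both calls held under every alternative tried with the groups of the titles.

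*Ptges3* (ENSMUSG00000071072, chr10:128058954-128077272, plus strand) encodes the cytosolic PGE2 synthase, known mainly as a co-chaperone of Hsp90. It was flat: all 16 mice were between 38.3 and 49.3 CPM, with log2 differences of 0.05 at ZT1 (95% interval -0.09 to 0.19) and -0.08 at ZT13 (-0.19 to 0.03). A processed copy, *Ptges3-ps*, was at 8.03 to 11.4 CPM, and reads of the gene and of its copy may be assigned to either, so both levels are uncertain by that much.

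*Ptgds* (ENSMUSG00000015090, chr2:25466709-25470046, minus strand) encodes the lipocalin-type PGD2 synthase, a major product of the leptomeninges, choroid plexus and oligodendrocytes. It was at 478, 681 and 584 CPM in ZT1 PBS mice and at 517, 633, 569, 548 and 534 CPM in ZT1 LPS mice. The ZT13 mice had 471, 564 and 497 CPM after PBS and 513, 441, 467, 473 and 492 CPM after LPS. PBS and LPS mice overlapped at both times, and the log2 differences of -0.04 (95% interval -0.25 to 0.17) at ZT1 and -0.09 (-0.22 to 0.03, adjusted p = 0.247) at ZT13 did not pass. With median-of-ratios factors it was called lower at ZT13 (log2 difference -0.15, adjusted p = 0.0497; 0.0497 to 0.907 over other settings), and quantile normalization gave -0.01.

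High *Ptgds* went with many choroid plexus reads in some mice and with few in others. The highest mouse, ZT1 PBS replicate 2 at 681 CPM, had 947 CPM of choroid plexus markers and 251 CPM of fibroblast markers, among the most of any mouse. ZT1 LPS replicate 1 had nearly as many of both, 886 and 253 CPM, with *Ptgds* at 517 CPM, while ZT1 LPS replicate 2 had 19.9 CPM of choroid plexus markers with *Ptgds* at 633 CPM. The part of these cells in the level of *Ptgds* was not tested.

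*Hpgds* (ENSMUSG00000029919, chr6:65117293-65144908, minus strand), the hematopoietic PGD2 synthase known from microglia and mast cells, ranged from 5.82 to 10.5 CPM. It differed by 0.11 log2 (95% interval -0.24 to 0.47) at ZT1 and by 0.25 (0.01 to 0.49, adjusted p = 0.108) at ZT13. Without ZT13 LPS replicate 3, at 6.92 CPM the lowest of its group, the difference at ZT13 was 0.31 with adjusted p = 0.0409, in a range of 0.0409 to 0.322 over the mice left out, and under quantile normalization it was 0.05 (adjusted p = 0.761, in a range of 0.0873 to 0.761 over other settings). The mast cell protease genes *Cma1* and *Mcpt4* and the mast cell receptor gene *Ms4a2* were at or under 3 reads in all mice. Of 6 mast cell markers only *Kit*, which cortical interneurons also express, was tested, and it was called lower at ZT13. The 6 summed to between 38.4 and 53.3 CPM. *Ptgis* (ENSMUSG00000017969, chr2:167191805-167240604, minus strand), the prostacyclin synthase of vessels, ranged from 1.77 to 3.83 CPM and differed by 0.05 log2 at ZT1 and by 0.33 (95% interval 0.01 to 0.65, adjusted p = 0.117) at ZT13, where quantile normalization gave 0.10 (adjusted p = 0.659, in a range of 0.108 to 0.659 over other settings). It shares 156 exon bases with the antisense transcript *1110018N20Rik*, which was at 2.31 to 4.16 CPM, so its level is uncertain.

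*Ptger4* (ENSMUSG00000039942, chr15:5206661-5244187, minus strand) and *Ptger2* (ENSMUSG00000037759, chr14:44988195-45003820, plus strand) encode PGE2 receptors that raise cyclic AMP. *Ptger4* was at 3.22, 2.52 and 3.69 CPM after PBS and at 7.24, 3.33, 4.26, 4.81 and 3.97 CPM after LPS at ZT1. At ZT13 it was at 3.59, 2.74 and 3.12 CPM after PBS and at 4.78, 6.55, 5.82, 6.33 and 4.86 CPM after LPS. The groups overlapped at ZT1 through ZT1 LPS replicate 2, and at ZT13 every LPS mouse was above every PBS mouse. The log2 difference was 0.49 (SE 0.20, adjusted p = 0.132) at ZT1 and 0.75 (SE 0.13, adjusted p = 0.000602) at ZT13. With the groups of the titles, the call at ZT13 held under every alternative, and the gene was called at ZT1 under none. A call at one time and not at the other does not show that the times differ: the difference between the LPS effects was 0.27 log2 (95% interval -0.27 to 0.80, adjusted p = 0.816). *Ptger4* shares 82 exon bases with *Ttc33*, on the other strand and at 23.6 to 27.3 CPM, and 1015 with a pseudogene at 0.759 CPM or less.

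*Ptger2* lay near the limit of detection, between 0.139 and 0.602 CPM. Its mean was 0.197 CPM after PBS and 0.331 CPM after LPS at ZT1, and 0.245 and 0.492 CPM at ZT13, and the groups overlapped at both times. Exact 2-sided permutation tests gave p = 0.107 at ZT1 and p = 0.0714 at ZT13, where 0.0357 is the smallest value that 3 against 5 mice allow. Neither passed. *Ptger2* shares 144 and 246 exon bases with antisense genes that were at up to 0.168 and 0.288 CPM, within its own range, so that level is uncertain. Between LPS mice of ZT13 and ZT1 the exact permutation p was 0.0952, and 0.0159 without ZT13 LPS replicate 5, at 0.279 CPM the lowest of its group. Between PBS mice the exact permutation p was 0.7, with 0.1 the smallest possible.

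**Figure D2:**
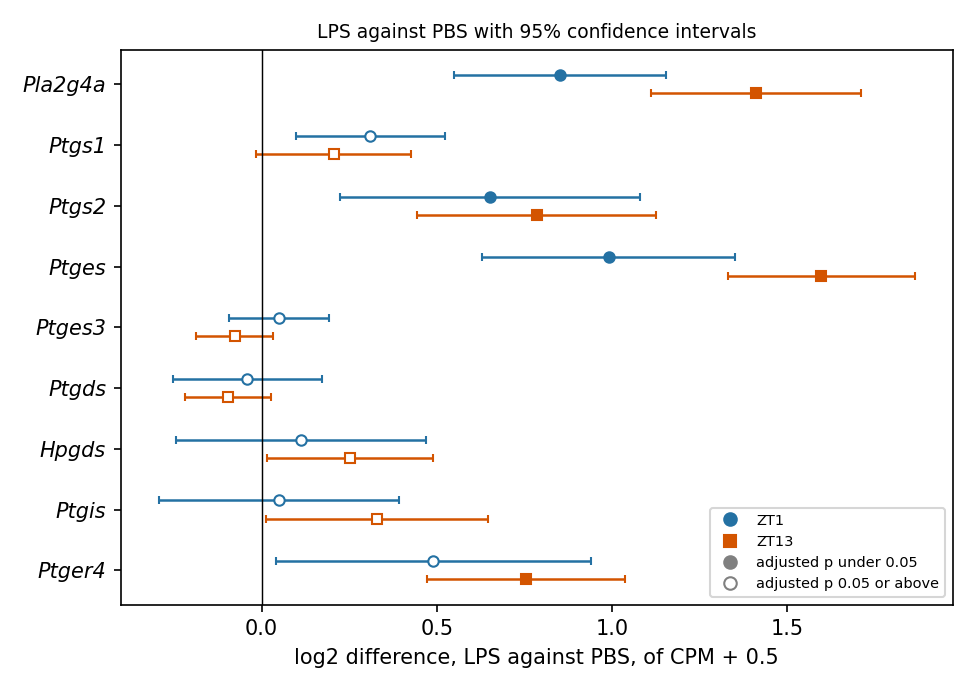
Log2 difference, LPS against PBS, of the 9 members tested at ZT1 and at ZT13, with 95% intervals from limma (3 PBS and 5 LPS mice at each time). Circles are ZT1 and squares ZT13, filled where the adjusted p is under 0.05, as for *Pla2g4a*, *Ptgs2* and *Ptges* at both times, and the intervals of *Ptges3* and *Ptgds* span 0 at both.

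Between genes, levels were compared per kb of the longest annotated transcript. In ZT1 PBS mice the order of the group means was *Ptgds* (645 CPM per kb), *Ptges3* (21.3), *Ptgs1* (4.30), *Ptgs2* (2.66), *Hpgds* (2.24), *Ptgis* (1.11), *Ptger4* (0.949), *Ptges* (0.807), *Pla2g4a* (0.721) and *Ptger2* (0.0535), and ZT13 PBS mice had the same order. In ZT1 LPS mice *Ptges* (1.76) and *Pla2g4a* (1.45) stood above *Ptger4* (1.43) and *Ptgis* (1.15), and ZT13 LPS mice had that order too. *Ptgds*, *Ptges3* and *Ptger2* did not overlap any other member over the 16 mice, and each of the other 7 overlapped at least 1. The length used matters. Per kb of all exons joined, *Ptger4* stood above *Pla2g4a* in every group, and both stood below *Ptgis*. By that length *Ptges* (1.63 at ZT1 and 2.04 at ZT13) stood above *Hpgds* (1.34 and 1.30) in LPS mice. The group means of *Ptgs1* and *Ptgs2* in LPS mice were 3.98 and 4.07 at ZT1 and 3.53 and 3.67 at ZT13. Which cyclooxygenase gene was higher there thus depended on the length. The log2 ratio of *Ptgs2* to *Ptgs1* had means (SD) of -0.74 (0.43) and -0.38 (0.36) in PBS and LPS mice at ZT1 and of -0.95 (0.53) and -0.35 (0.35) at ZT13 by the longest transcript, and means of -0.34, 0.02, -0.55 and 0.05 by joined exons. The geometric mean ratio of *Ptgds* to *Ptges* was 798 and 360 at ZT1 and 895 and 241 at ZT13 by the longest transcript, and 470, 212, 527 and 142 by joined exons.

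The design also compares ZT13 with ZT1 in the level after LPS, the level after PBS and the effect of LPS. Each is a time of injection and of collection at once, and the part of either was not tested. Between the 5 ZT13 and the 5 ZT1 LPS mice, 0 of 9 members were DEGs against 0.0212% of all genes, which is 4 genes; unadjusted limma p-values were below 0.05 for 4 members and for 1998 of all genes. The count of 4 genes depended on single mice and on the fit: it ran from 0 to 345 with 1 mouse left out, the highest without ZT1 LPS replicate 1, and from 0 to 225 over other settings with the titles' groups, the highest with sample quality weights. The members' median log2 difference was -0.03, against 0.01 over all genes. *Ptgds* was lower in every ZT13 LPS mouse than in every ZT1 LPS mouse, 1 member where 0.408% of all genes were separated in that direction. Its log2 difference was -0.23 (95% interval -0.34 to -0.11, adjusted p = 0.132). It was called with sample quality weights (-0.23, adjusted p = 0.0264) and without ZT1 LPS replicate 1 (-0.26, adjusted p = 0.0315), and the adjusted p ranged from 0.0315 to 0.325 over the mice left out and from 0.0264 to 0.414 over other settings. *Ptgds* differed between PBS mice by -0.17 log2 (limma, 95% interval -0.42 to 0.07, adjusted p = 0.552), with overlap. Its interaction of time and treatment was -0.05 (-0.31 to 0.21, adjusted p = 0.943). Between LPS mice *Ptgis* differed by 0.34 (adjusted p = 0.351), *Ptges* by 0.32 (0.374) and *Pla2g4a* by 0.30 (0.391).

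In PBS mice, ZT13 against ZT1, 0 of 9 members were DEGs against 0.520% of all genes, which is 98 genes, and unadjusted limma p-values were below 0.05 for 0 members and 2543 genes. The count of 98 ran from 12 to 87 with 1 mouse left out, the lowest without ZT1 PBS replicate 2, and from 3 to 199 over other settings with the titles' groups, with 0 members in each. The members' median log2 difference was -0.17, against 0.00 over all genes. *Pla2g4a* was lower in every ZT13 PBS mouse than in every ZT1 PBS mouse, where 9.21% of all genes were separated in that direction, with a log2 difference of -0.26 (95% interval -0.59 to 0.07, adjusted p = 0.501). For the interaction of time and treatment, 0 of 9 members were called against 0.159% of all genes, which is 30 genes; unadjusted limma p-values were below 0.05 for 2 members, *Pla2g4a* and *Ptges*, and for 1745 genes. The count of 30 ran from 7 to 104 with 1 mouse left out, the highest again without ZT1 LPS replicate 1, and from 11 to 124 over other settings with the titles' groups, with 0 members in each. The LPS effect at ZT13 less that at ZT1 was 0.61 log2 for *Ptges* (limma, 95% interval 0.16 to 1.05, adjusted p = 0.349). It was 0.56 for *Pla2g4a* (0.15 to 0.97, adjusted p = 0.339) and 0.13 for *Ptgs2* (-0.46 to 0.72, adjusted p = 0.937). *Ptges* differed by -0.29 between PBS mice (-0.66 to 0.09, adjusted p = 0.509) and by 0.32 between LPS mice. These comparisons share mice with those of LPS against PBS. The median interaction of the 9 members was 0.14 log2, against 0.01 over all genes.

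Of 56 other genes of eicosanoid pathways in 5 lists, 36 were tested. At ZT1, 7 were DEGs and higher after LPS and 2 lower, against 11.1% and 5.15% of all genes. At ZT13, 13 were higher and 2 lower, against 19.2% and 9.40%. The median log2 differences were 0.07 and 0.11, against 0.04 and 0.05 over all genes. These figures count *Akr1b8* and *Ltb4r1*, which reached 1 CPM in LPS mice alone and so passed the filter only through mice in which they were high. With all genes above 0 CPM tested, both were called at ZT13 and neither at ZT1. That test held 55 of the 56 genes, with 3 higher and 1 lower at ZT1 and 12 higher and 0 lower at ZT13. Over all 38565 genes in it, 1167 were higher and 438 lower at ZT1, and 3022 and 1310 at ZT13. At ZT13 median-of-ratios factors gave 10 higher and 4 lower, and quantile normalization 7 higher and 6 lower; at ZT1 they gave 6 and 2, and 5 and 2. Without ZT1 PBS replicate 1, 5 of the 36 were called at ZT1 in place of 9. Between LPS mice of the 2 times and for the interaction 0 of 36 were called.

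Of 7 other synthesis genes, 0 were called at ZT1. At ZT13, 3 were higher, against 19.2% of all genes. That count holds *Akr1b8*, which passed the filter only through LPS mice, and the others were *Tbxas1* and *Prxl2b*. *Tbxas1*, thromboxane synthase, went from a mean of 1.57 CPM (SD 0.315) after PBS to 4.09 CPM (SD 0.591) after LPS at ZT13, a log2 difference of 1.15 (adjusted p = 3.88e-05). The aldo-keto reductase *Akr1b8* differed by 0.72 (adjusted p = 0.00788) at means of 0.462 and 1.08 CPM, and by 1.08 log2 with a pseudocount of 0.1, while the prostamide synthase gene *Prxl2b* differed by 0.20 (adjusted p = 0.0150). The calls of *Akr1b8* under quantile normalization (0.41 log2), of *Prxl2b* under both other scalings (0.15 and 0.12) and of *Prxl2b* without ZT13 PBS replicate 1 (0.18) were lost. Calls were also gained. *Ptges2*, another PGE2 synthase gene, differed by -0.16 (adjusted p = 0.0592) at ZT13 and was called lower there with median-of-ratios factors (-0.22), quantile normalization (-0.25), the filter of 5 CPM, and without ZT13 PBS replicate 1 (-0.22) or ZT13 LPS replicate 5 (-0.18). At ZT1 *Tbxas1* (0.55) and *Akr1b8* (0.57) were called higher in one fit of all 16 mice and with sample quality weights (0.69 and 0.55), *Tbxas1* also without ZT1 LPS replicate 2 (0.71) and *Akr1b8* without ZT1 LPS replicate 5 (0.68). *Akr1c18* (0.24) was called there with no intensity trend. Of 5 other prostanoid receptor genes tested, 1 was called at ZT13, near the share of all genes: *Ptgdr*, a PGD2 receptor, rose at ZT13 (0.77 log2, adjusted p = 0.0101), a call lost without ZT13 PBS replicate 3 (0.60), under quantile normalization (0.54), with a replicate block (0.73) and with all genes above 0 CPM tested.

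Of 4 genes of inactivation and transport tested, *Hpgd*, which starts the breakdown of prostaglandins, fell at ZT1 from a mean of 2.56 CPM (SD 0.380) to 1.55 CPM (SD 0.165), a log2 difference of -0.57 (adjusted p = 0.0167). The call was lost without ZT1 PBS replicate 3 (-0.48) and with a replicate block (-0.57). *Slco2a1*, a prostaglandin transporter, rose at ZT13 (0.53 log2, adjusted p = 0.0217), a call lost without ZT13 PBS replicate 1 (0.37), under quantile normalization (0.31) and with all genes above 0 CPM tested. Of 12 other genes of arachidonate release tested, 1 was higher and 1 lower at ZT1 and 2 higher and 1 lower at ZT13, near the shares of all genes. The secreted phospholipase gene *Pla2g3* rose at both times, by 0.74 (adjusted p = 0.00729) and 0.65 (adjusted p = 0.0072). At ZT13 its call was lost under quantile normalization (0.45). Its calls at both times were lost when all genes above 0 CPM were tested.

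Small differences in the same list passed as well. *Dagla*, a diacylglycerol lipase, fell by 0.15 log2 at ZT1 (adjusted p = 0.0435) and by 0.12 at ZT13 (adjusted p = 0.0316). Of the 8 fits at each time that lacked 1 mouse, 6 lost the call of *Dagla*: those without any of the PBS mice of that time and without LPS replicates 1, 3 and 4, with log2 differences of -0.18 to -0.12 at ZT1 and of -0.13 to -0.09 at ZT13 in them. At both times it was also lost under quantile normalization, with no intensity trend and with all genes above 0 CPM tested, and at ZT1 with the block. *Mgll*, which breaks down an arachidonate-carrying endocannabinoid, rose by 0.12 at ZT13 (adjusted p = 0.0177), a call lost without ZT13 PBS replicate 2 (0.10), with median-of-ratios factors (0.06), in one fit of all 16 mice and with no intensity trend. *Pla2g4b* was the only one of the 36 called between PBS mice of the 2 times, lower at ZT13 by 0.78 log2 (adjusted p = 0.0310) with no overlap. That call was lost without any 1 of the 6 mice, with log2 differences of -0.84 to -0.73, and in 4 of 10 other settings.

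In the lipoxygenase and leukotriene list, 8 genes were tested. At ZT1, 6 were higher after LPS and 0 lower, against 11.1% and 5.15% of all genes. At ZT13, 6 were higher and 1 lower, against 19.2% and 9.40%. These counts hold *Ltb4r1*, which passed the filter only through LPS mice. The others higher at both times were *Alox5ap*, *Alox5*, *Alox12b*, *Aloxe3* and *Lta4h*. *Alox5ap*, which presents arachidonic acid to 5-lipoxygenase, went from a mean of 2.10 CPM (SD 0.0727) to 9.61 CPM (SD 3.12) at ZT1 and from 1.99 CPM (SD 0.103) to 16.3 CPM (SD 4.13) at ZT13. Its log2 differences were 1.89 (adjusted p = 0.000334) and 2.72 (adjusted p = 2.55e-08), above those of every member. *Alox5*, the 5-lipoxygenase gene itself, differed by 0.92 (adjusted p = 0.00103) and 1.56 (adjusted p = 3.45e-06). The epidermal-type lipoxygenase genes *Alox12b* (0.83 and 0.78) and *Aloxe3* (0.62 and 0.46) were higher at both times. So was the leukotriene A4 hydrolase gene *Lta4h* (0.25 and 0.20). The leukotriene B4 receptor gene *Ltb4r1* differed by 0.95 and 1.34, but it was tested only because LPS mice reached 1 CPM.

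The leukotriene C4 synthase gene *Ltc4s* was lower at ZT13, by 0.85 log2 (adjusted p = 0.0138), a call lost without ZT13 PBS replicate 1 (-0.60) or replicate 3 (-0.76), or with all genes above 0 CPM tested. *Alox12b* and *Aloxe3* lost their calls at ZT1 with all genes above 0 CPM tested, *Aloxe3* also without ZT1 PBS replicate 1 (0.59), and *Lta4h* lost its call at ZT13 without ZT13 PBS replicate 1 (0.16) and at both times under both other scalings and with the block, and at ZT1 also with no intensity trend and with all genes tested. At ZT1 *Lta4h* was called in 3 of the 8 fits that lacked 1 mouse, losing its call without PBS replicates 1 and 2 and LPS replicates 1, 3 and 4 (0.20 to 0.25). *Ltb4r1* was at 0.157 CPM on average in ZT1 PBS mice, near the limit of detection, and with a pseudocount of 0.1 its log2 differences were 1.74 and 2.40. It was called at ZT1 in 2 of those 8 fits, losing its call without any PBS mouse and without LPS replicates 1, 3 and 4 (0.77 to 1.04), and it was not called there under quantile normalization (0.46), with no intensity trend, with the block or with all genes tested.

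Other genes of these lists were called in some alternatives and not in the main fit. At ZT1, *Pla2g4b* was called lower under quantile normalization (-0.80 log2), in one fit of all 16 mice (-0.64), with quality weights (-0.69), with the block (-0.88) and without ZT1 LPS replicate 5 (-0.85). *Pla2g4e* was called higher with the block (0.53) and without that mouse (0.46), *Ltc4s* lower without it (-0.92), *Ptgdr* higher without ZT1 LPS replicate 4 (0.68), *Abcc4* higher without ZT1 LPS replicate 2 (0.32) and *Pla2g7* lower in one fit of all mice (-0.24). At ZT13, quantile normalization called *Ptger3* (-0.35), *Hpgd* (-0.39), *Ptgr2* (-0.23) and *Pla2g7* (-0.19) lower, and median-of-ratios factors *Pla2g7* (-0.20). Between LPS mice *Alox5* was called higher at ZT13 without ZT1 LPS replicate 1 (0.54).

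Markers of several cell types moved with treatment. Their part in the differences of the members and of the other pathway genes, *Alox5ap* and *Alox5* included, was not tested. Their counts stand beside the shares of all genes given above, 11.1% higher and 5.15% lower at ZT1 and 19.2% and 9.40% at ZT13. Of 10 endothelial markers, 8 were higher and 1 lower after LPS at ZT1, and 9 were higher at ZT13; their summed level was 237, 240 and 242 CPM in ZT1 PBS mice and 422, 344, 392, 434 and 349 CPM in ZT1 LPS mice. At ZT13 it was 212, 225 and 257 CPM after PBS and 420, 457, 443, 418 and 448 CPM after LPS, with *Slc2a1* the most abundant. No endothelial sum overlapped between PBS and LPS mice, as for *Ptges* and *Pla2g4a*. The sums of neutrophil markers and of the NF-kB genes, both given below, were also higher without overlap at each time. Those of cortical neuron markers were lower without overlap. Of the 10 endothelial markers, 4 were called higher in the interaction, where 0.159% of all genes were called in either direction. Between LPS mice, ZT13 against ZT1, 0 were called (median 0.24 log2), against 0.0212% of all genes. Between PBS mice 1 was higher and 2 were lower at ZT13 (median -0.28 log2), against 0.520% in either direction. Of 8 mural markers, 2 were higher at ZT1 and 3 at ZT13, and the sums stayed between 131 and 172 CPM, with *Rgs5* the most abundant. Of 10 leptomeningeal and perivascular fibroblast markers, 3 were higher and 1 lower at ZT1, and 5 were higher and 2 lower at ZT13; sums were between 158 and 253 CPM, with *Igf2* the most abundant.

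Immune cell markers also moved. Of 8 microglial markers, 5 were higher and 2 lower at each time, with mean sums of 194 and 276 CPM in PBS and LPS mice at ZT1 and of 189 and 259 CPM at ZT13, *Csf1r* being the most abundant. The lowest LPS mouse was ZT1 LPS replicate 2 at 199 CPM. That mouse also had the lowest endothelial, mural, fibroblast and perivascular macrophage sums of the ZT1 LPS mice. It was the lowest of them for *Pla2g4a*, *Ptgs1*, *Hpgds* and *Ptger4*, the highest for *Ptges* and *Ptgds*, and next to the highest for *Ptgs2*. Of 6 perivascular macrophage markers 5 were tested, of which *Lyve1* and *Cbr2* reached 1 CPM in LPS mice alone. Of the other 3, 2 were higher at each time, with mean sums over the 6 listed of 9.85 and 19.4 CPM and of 11.1 and 27.4 CPM, *F13a1* being the most abundant. Neutrophil markers were near the limit of detection in PBS mice, with mean sums over the 9 listed of 1.10 CPM at ZT1 and 0.890 CPM at ZT13. They summed to 49.4, 10.03, 20.3, 43.2 and 9.92 CPM in ZT1 LPS mice and to 61.1, 50.5, 87.0, 88.0 and 33.0 CPM in ZT13 LPS mice, with *S100a9* the most abundant. The 5 that were tested reached 1 CPM in LPS mice alone, so their calls are not counted.

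Of 8 lymphocyte markers 1 was tested, *Cd4*, at group means of 1.51 to 2.29 CPM. It was not called, the 8 summed to between 1.33 and 3.90 CPM, and *Cd3d* and *Ms4a1* were at or under 3 reads in all mice. Of 5 erythrocyte markers 0 were called, with sums of 6.16 to 35.8 CPM. Of 7 astrocyte markers, 4 were higher at ZT1, and 4 were higher and 1 lower at ZT13, with mean sums of 5118 and 5206 CPM and of 5311 and 5158 CPM, most of it *Slc1a2*. Of 8 oligodendrocyte markers, 1 was higher and 2 lower at ZT1, and 2 were higher and 5 lower at ZT13, with mean sums of 2869 and 2716 CPM and of 3113 and 2722 CPM and *Mbp* the most abundant. Of 12 cortical neuron markers, 1 was lower at ZT1 and 5 at ZT13, with mean sums of 5133 and 4942 CPM and of 5314 and 4799 CPM and *Syt1* the most abundant. Of 8 choroid plexus markers, 0 were called at ZT1, where 8 had positive differences (median 0.47 log2), and at ZT13 1 was called higher while 7 had negative differences that did not pass (median -0.58 log2), with mean sums of 329 and 388 CPM and of 528 and 253 CPM.

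*Ptgs2* is known both as an activity-dependent gene of neurons and as a gene induced by inflammatory signalling. Of 12 immediate early genes, 8 were lower after LPS at ZT1 and 9 at ZT13, against 5.15% and 9.40% of all genes. At each time 0 were higher, against 11.1% and 19.2%. The immediate early genes summed to 1777, 1676 and 2149 CPM in ZT1 PBS mice and to 913, 1786 and 2069 CPM in ZT13 PBS mice, with *Egr1* the most abundant. In LPS mice the sums were 1008, 1326, 1154, 1088 and 1671 CPM at ZT1 and 838, 850, 643, 1089 and 1107 CPM at ZT13. The sums of PBS and LPS mice overlapped at ZT13, through ZT13 PBS replicate 1. Within groups, the ZT1 LPS mice had the same rank order for this sum as for *Ptgs2*, replicates 4 and 5 were the highest ZT13 LPS mice for both, replicate 1 was the lowest ZT13 PBS mouse for both, and replicate 3 was the highest ZT1 PBS mouse for both. The remaining mice of those 3 groups were in different orders. Of 12 genes that induce or feed back on NF-kB signalling, 10 were tested, of which *Il1b*, *Tnf* and *Cxcl1* reached 1 CPM in LPS mice alone. The other 7 were higher at both times, against 11.1% of all genes at ZT1 and 19.2% at ZT13. Mean sums over the 12 listed were 45.7 and 111 CPM in PBS and LPS mice at ZT1. They were 51.0 and 142 CPM at ZT13, *Nfkbia* being the most abundant. The part of either program in the level of *Ptgs2* was not tested.

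With the group means removed, the genes most alike in the 16 mice were listed for each of 4 members as a description, with no p. For *Ptgs2* they were *Ptpn3* (Pearson r 0.901, Spearman rho 0.924), *Gm13301* (0.895, 0.885) and *Prdm2* (0.870, 0.821). For *Ptges* they were *Gm11696* (0.945, 0.903), the integrin gene *Itga5* (0.844, 0.885) and *Vill* (0.831, 0.765). For *Ptgds* they were *Sult1a1* (0.939, 0.900), *Gm13379* (0.896, 0.885) and *Kndc1* (0.852, 0.779), and for *Ptgs1* *Rpl15-ps2* (0.863, 0.759), *Acsl4* (0.843, 0.812) and *AC169509.1* (0.817, 0.729). Of these 12 genes, *Itga5* (1.27 and 2.19 log2), *Sult1a1* (1.16 and 0.79) and *Kndc1* (0.39 and 0.14) were higher after LPS at both times, *Ptpn3* (0.19) at ZT1, and *Vill* (0.35) and *Gm13379* (0.46) at ZT13. *Ptgds*, which *Sult1a1* and *Kndc1* followed within groups, was called at neither time. Genes read from one library share its depth and composition.

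Promoter sequences are shown for the 4 members called at ZT13, each of them higher after LPS. They are the 250 bases before the RefSeq start on GRCm38.p6, 5′ to 3′ on the strand of the gene; 9 of the 10 members matched, *Ptgis* having no entry. Both strands were searched for CACGTG (E-box), TGACG (core of the cyclic AMP response element), TTGCGCAA (C/EBP element), TATAAA (a core promoter box), GTGGGCG (EGR element), GGGCGG (GC box), CCAAT (a box named for its letters) and the kappaB consensus. Capitals mark matches. Of 32851 promoters, these motifs were held by 6.02%, 17.8%, 0.164%, 12.4%, 7.02%, 32.7%, 33.8% and 3.9%, in the same order.
Pla2g4a: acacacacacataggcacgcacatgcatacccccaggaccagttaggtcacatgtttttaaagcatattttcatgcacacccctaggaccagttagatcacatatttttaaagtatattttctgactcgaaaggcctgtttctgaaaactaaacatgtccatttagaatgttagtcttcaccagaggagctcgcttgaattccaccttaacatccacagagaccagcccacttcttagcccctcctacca
Ptgs2: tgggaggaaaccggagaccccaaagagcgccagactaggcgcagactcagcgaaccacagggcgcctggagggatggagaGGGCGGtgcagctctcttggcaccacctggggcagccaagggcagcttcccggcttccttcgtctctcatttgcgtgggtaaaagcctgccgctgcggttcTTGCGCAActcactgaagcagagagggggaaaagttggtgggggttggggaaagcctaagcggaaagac
Ptges: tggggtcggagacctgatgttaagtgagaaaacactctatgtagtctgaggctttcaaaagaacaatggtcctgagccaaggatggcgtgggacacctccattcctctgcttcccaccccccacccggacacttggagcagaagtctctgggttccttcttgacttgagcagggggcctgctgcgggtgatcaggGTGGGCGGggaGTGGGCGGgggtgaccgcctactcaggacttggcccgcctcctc
Ptger4: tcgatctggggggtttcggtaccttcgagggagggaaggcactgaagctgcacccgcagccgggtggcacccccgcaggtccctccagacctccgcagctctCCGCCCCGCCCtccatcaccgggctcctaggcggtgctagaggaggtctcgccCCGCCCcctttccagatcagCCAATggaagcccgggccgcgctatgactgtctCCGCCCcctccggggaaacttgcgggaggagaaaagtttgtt
The *Pla2g4a* window (chr1:149961291-149961540, minus strand) held no match and no annotated exon base, and was the nearer to the gene start of 2 in the table. The *Ptgs2* window (chr1:150099781-150100030, plus strand) held a GC box at -170 to -165 and the C/EBP palindrome at -69 to -62 from the start; 183 of its bases are in exons of the antisense *Ptgs2os*. The *Ptges* window (chr2:30903298-30903547, minus strand) lies inside the annotated gene, between exons, and held 2 EGR elements, at -55 to -49 and -44 to -38, each overlapping a GC box. The *Ptger4* window (chr15:5244188-5244437, minus strand) held no exon base, 4 GC boxes read on the opposite strand, of which 2 share a base, and a CCAAT box at -75 to -71. Among the member windows not shown, that of *Ptges3* held 3 GC boxes, that of *Ptgds* the only kappaB match, and that of *Ptger2* a CCAAT box. Those of *Ptgs1* and *Hpgds* held no match. A match is a description of letters, and the absence of a match says only that these letters are not in the window.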

How the data were processed

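Total RNA depleted of ribosomal RNA (KAPA RiboErase) was sequenced from 16 cortices. The authors made base calls with bcl2fastq and ran DRAGEN 4.0.3-8 on GRCm38, and deposited CPM per gene; the counting tool, annotation and strand are not given in the sources used here. Of 55774 lines, 287 repeats were removed. Values were whole multiples of an estimated single read (tolerance 0.001) for 80.5% to 82.0% of entries up to 20 reads, so no count model was used. Genes with CPM of at least 1 in at least 3 mice were kept, log2(CPM + 0.5) was fitted by limma 3.58.1 with an intensity trend in R 4.3.3, on the mice of each comparison or, for the interaction, on all 16, and p-values were adjusted by Benjamini-Hochberg over 18859 genes. *Ptger2*, below the filter, was tested by exact 2-sided permutation in scipy 1.17.1. Figures used matplotlib 3.10.9. GENCODE M21 gave positions. All members are named, other pathway genes are named where called, and the genes named as most alike are the 3 with the highest r for 4 members. The members and lists were chosen with earlier results of these data known.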

Additional observations from a re-analysis of the deposited data

How the results depend on the processing

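The alternatives were pseudocounts of 0.1 and 1, a filter of CPM at least 5, all genes above 0 CPM, quantile normalization, median-of-ratios factors, one fit of all 16 mice, no intensity trend, quality weights, a replicate block, the treatment field of the labels, and each mouse left out. The treatment field was applied to the counts alone. Of the members' differences under other settings, 431 kept direction and side of the threshold, 6 reversed, 6 became called and 5 lost a call. With a mouse left out these counts were 438, 15, 5 and 6. They do not cover the single calls of other pathway genes, whose losses and gains are given with those genes above. Of the counts of members and other pathway genes called, many of them 0, 97 stayed within 1.5 times and 11 did not, and with a mouse left out 87 and 9. All-gene counts moved further: with a mouse left out they were 0 to 345 between LPS mice (4 in the main fit), 12 to 87 between PBS mice (98) and 7 to 104 for the interaction (30).

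Grouped by the treatment field, 0 members were called at ZT1 and 0 at ZT13, so that every member call was lost, and 0 other pathway genes were called at ZT1, at ZT13 and between PBS mice, a count added after the values were seen; that field mixes the titles' groups. Quality weights called 1 member between LPS mice. With all genes tested, 4 other pathway genes were called at ZT1 and 0 between PBS mice, where the fit of all mice, no trend and the block also gave 0. Reversed were, with the block, *Ptges3* (-0.0245) and *Hpgds* (-0.0267) at ZT1; with quantile normalization, *Ptgds* (0.0324), *Hpgds* (-0.0140) and *Ptgis* (-0.0938) at ZT1; with quality weights, *Ptger4* between PBS mice (-0.00770). None of these was called. The cause was not tested.

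With a mouse left out, members called were 2 to 3 at ZT1, 4 to 5 at ZT13, 0 to 1 between LPS mice, and 0 between PBS mice and for the interaction; other pathway genes were 5 to 13, 11 to 16, 0 to 1, 0 and 0. Log2 differences crossed 0 for *Ptgds* (-0.174 to 0.0812) and *Ptgis* (-0.104 to 0.136) at ZT1, *Hpgds* between LPS mice (-0.152 to 0.0482), *Ptgs1* (-0.131 to 0.00357), *Ptgis* (-0.0933 to 0.146) and *Ptger4* (-0.121 to 0.115) between PBS mice, and for the interaction of *Ptgs2* (-0.0901 to 0.390) and *Ptgds* (-0.176 to 0.0793).

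Mice of different groups share replicate numbers. Over 20 same-number pairs, r of the deviations from the group means ran from -0.199 to 0.328. Pairs of unlike number were not compared, so this range cannot show whether the numbers pair mice. With replicate as a block, members called were 3, 4, 0, 0 and 0 and all genes called 2637, 4680, 3, 57 and 25, in the order ZT1, ZT13, LPS mice, PBS mice and interaction. *Ptger2*, *Ltb4r1* and *Akr1b8* were under 1 CPM in every PBS mouse, and the log2 differences of *Ltb4r1* and *Akr1b8* depended on the pseudocount. Groups held 3 PBS or 5 LPS mice.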
